A study of Rattus norvegicus with 6 samples.

Results

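A set of 9 genes of red cells and their precursors were followed in the rat renal cortex: the globins Hba-a3 and Hbb-b1 and 7 genes of the reticulocyte type, Ahsp, Alas2, Slc25a37, Rhd, Rhag, Epb42 and Hemgn. They were chosen by their measured values, since several of them stood high in the treated animals of this same data set, and their treated-minus-vehicle values are given as a description, with no p-value for any member. The probes were found by the transcript accession that the scanner files give for each probe, which tied 17 probes to the 9 genes, of 61537 probes and 15645 named genes in all.

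The kidneys came from 6 male Sprague-Dawley rats of the Crl:CD(SD) stock, bought at 5 weeks of age. Corn oil alone, the vehicle, went to 3 animals for 4 weeks. The other 3 were dosed with p-nitroanisole, a methoxy-substituted nitrobenzene, and 500 mg/kg/day is the dose given for the same 4 weeks. Each animal gave 1 sample of cortex RNA, labelled with Cy3 and hybridised to 1 single-colour Agilent array. How the doses were given and when the animals were killed is not given in the sources used here.

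Red cells carry oxygen on hemoglobin, a tetramer of alpha-type and beta-type globin chains, each holding a heme. Their precursors in the marrow expel the nucleus and enter the blood as reticulocytes, which still hold messenger RNA and lose it over days. Globin messages are very stable, while messages for heme synthesis, membrane assembly and nuclear regulation are those of younger cells. A piece of kidney always contains some blood, and in whole tissue a change in the number of cells of a type and a change in the RNA held per cell cannot be told apart.

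Values below are scaled intensities, the background-subtracted signal of a probe divided by the 75th percentile of its array. A value of 1 therefore means a signal equal to that percentile, and values of different probes are not read as relative amounts of RNA. Where scaled levels of a marker list are summed, the brightest probes weigh most in the sum. Differences are on the log2 scale, treated mean minus vehicle mean of 3 arrays each, with the standard error (SE) of the limma fit. From 40877 to 42601 probes per array stood well above background, no spot was saturated, and over the tested rows any pair of arrays had r between 0.9888 and 0.9945. Kidney cortex markers were bright on every array: the proximal tubule genes Slc22a6 and Slc13a3 read at least 275 and 358 times the percentile. The number of arrays limits the precision of every value.

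Upstream sequences are shown first for members that lay high together and whose window held motifs that red cell promoters are known for. Every printed window therefore holds a motif by selection. Epb42 also lay high, but its window held none of the motifs and is not printed. RefSeq, assembly GRCr8, gave a window for 7 of the 9 members, and the names without one are Ahsp and Slc25a37. Each line holds the 250 bases before the start of the gene model, 5′ to 3′ on the gene's own strand, in lower case. Capitals mark GATA motifs, CACCC boxes, TATA boxes and CCAAT boxes, searched on both strands with no overlap between marked motifs. A GATA motif was spelled AGATAA, with TGATAA as its other form. A CACCC box was spelled CCNCACCC, with CCNCGCCC as its other form. The letters TATAAA stood for a TATA box, and those of the CCAAT box are its name.
Hba-a3, chr10:15816944-15817193, minus strand: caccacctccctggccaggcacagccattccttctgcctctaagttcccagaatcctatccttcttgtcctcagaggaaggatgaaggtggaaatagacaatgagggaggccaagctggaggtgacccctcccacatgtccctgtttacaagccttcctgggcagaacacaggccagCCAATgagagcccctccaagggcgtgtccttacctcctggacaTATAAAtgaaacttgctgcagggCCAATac
Hbb-b1, chr1:167643521-167643770, minus strand: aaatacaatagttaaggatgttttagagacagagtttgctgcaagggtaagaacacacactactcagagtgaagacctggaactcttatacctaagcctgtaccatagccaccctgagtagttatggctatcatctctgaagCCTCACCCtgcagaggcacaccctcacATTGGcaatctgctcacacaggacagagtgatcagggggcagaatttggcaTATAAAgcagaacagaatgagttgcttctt
Alas2, chrX:22895200-22895449, plus strand: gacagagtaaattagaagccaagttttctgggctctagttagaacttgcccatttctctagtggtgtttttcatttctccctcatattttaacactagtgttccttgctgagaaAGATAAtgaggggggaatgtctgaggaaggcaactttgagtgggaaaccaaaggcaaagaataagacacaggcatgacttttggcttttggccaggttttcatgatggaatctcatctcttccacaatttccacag
Rhd, chr5:152370950-152371199, plus strand: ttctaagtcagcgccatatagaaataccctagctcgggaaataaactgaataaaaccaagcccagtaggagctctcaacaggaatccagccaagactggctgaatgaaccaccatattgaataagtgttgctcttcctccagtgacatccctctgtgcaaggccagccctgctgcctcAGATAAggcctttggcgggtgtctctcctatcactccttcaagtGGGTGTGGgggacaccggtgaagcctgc
Hemgn, nearer of 2 annotated starts, chr5:65485822-65486071, minus strand: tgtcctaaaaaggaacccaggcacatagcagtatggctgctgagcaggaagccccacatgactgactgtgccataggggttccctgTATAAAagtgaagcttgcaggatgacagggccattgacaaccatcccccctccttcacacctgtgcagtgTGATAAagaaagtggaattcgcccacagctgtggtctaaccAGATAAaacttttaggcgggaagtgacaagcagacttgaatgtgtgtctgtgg

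Both globin windows held a TATA box 30 bases before the start. Hbb-b1 added a CACCC box at 108 bases and a CCAAT box on the opposite strand at 81, while Hba-a3 had CCAAT boxes at 73 and 7 bases. Neither globin window held one of the GATA motifs. Alas2 had a GATA motif at 136 bases, Rhd at 72 with a CACCC box on the opposite strand at 28, and the printed Hemgn window had GATA motifs at 94 and 53 and a TATA box at 164. The window of the other annotated Hemgn start, chr5:65494190-65494439, not printed, held none of the motifs. The Rhag window, not printed, held a GATA motif on the opposite strand at 31 bases, and the Epb42 window, also not printed, held none of the motifs. Of 33469 windows of the same length, 16.9% held a GATA motif, 29% a CACCC box, 12.9% the TATA box, 34% the CCAAT box and 2.52% both a GATA motif and a CACCC box. The upstream bases of Hbb-b1 were 97.2% identical to those of Hbb-b2, 93.6% to Hbb-bs and 61.8% to Hbb, and those of Hba-a3 were 66.3% identical to Hba-a1. Motif matches are of letters only and say nothing of binding. Distances are counted from the first base of the RefSeq gene model, and whether transcription starts there in blood or kidney was not tested. The Alas2 window ends in letters like those before an exon (cacag), so its distances may not be distances from a promoter start.

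The globin probes were bright in both groups. Hba-a3, an alpha-type chain, read 177, 206 and 227 times the percentile on vehicle arrays 1 to 3 and 483, 492 and 563 on treated arrays 1 to 3. All 3 treated values lay above all 3 vehicle values, and the difference was 1.34 (SE 0.12), or 2.53-fold. Hbb-b1, a beta-type chain, read 153, 178 and 183 with vehicle and 353, 367 and 416 with p-nitroanisole. Its groups were also apart, with a difference of 1.14 (SE 0.10), or 2.21-fold. The remaining Hbb-b1 probes gave 1.22 and 1.00, so its 3 probes spanned 1.00 to 1.22.

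A second, dimmer Hba-a3 probe shows how far 1 spot can move a value. It read 0.875 and 1.02 on vehicle replicates 1 and 2 but 0.00371 on vehicle replicate 3, a spot that was not well above background and carried no outlier flag. The treated arrays read 3.25, 2.77 and 3.89. With that spot the difference was 4.46 (SE 2.19), and without vehicle replicate 3 it was 1.79, or 3.47-fold.

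Ahsp, the chaperone that holds free alpha globin, read 0.672, 0.594 and 0.945 in the vehicle group and 1.64, 3.09 and 4.86 in the treated group. The treated values were wide apart but all above the vehicle range, and the difference was 2.01 (SE 0.41), or 4.03-fold. The second Ahsp probe gave 2.20, with its groups apart as well.

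Alas2 encodes the red cell form of the first enzyme of heme synthesis. Its single probe read 1.14, 1.34 and 1.50 with vehicle and 4.89, 4.40 and 5.60 with treatment. Here the treated animals were close together, and the difference was 1.91 (SE 0.14), or 3.75-fold. Slc25a37, mitoferrin 1, carries iron into mitochondria for heme synthesis. It read 0.265, 0.230 and 0.263 against 0.278, 0.266 and 0.337. The groups barely missed overlapping, the difference was 0.21 (SE 0.12), or 1.16-fold, and on its second probe (0.16) they did overlap. Slc25a37 was thus the one tested member whose levels were nearly alike in both groups.

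Rhd, the Rh blood group D antigen of the red cell surface, read 0.104, 0.119 and 0.166 in vehicle animals and 0.374, 0.536 and 0.794 in treated animals. The groups were apart by 2.09 (SE 0.31), or 4.26-fold. Epb42, protein 4.2, links the membrane skeleton to the anion exchanger. It was dim, at 0.0378, 0.0310 and 0.0473 against 0.102, 0.0859 and 0.114, with a difference of 1.39 (SE 0.18), or 2.62-fold. The second Epb42 probe was well above background on 1 vehicle and 2 treated arrays, and its groups overlapped. Rhag, the partner glycoprotein of the Rh antigens, could not be followed: its brighter probe was well above background on 0 of 3 vehicle and 1 of 3 treated arrays, and its other probe on none of the 6.

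Hemgn, a nuclear protein of blood precursors, read 0.0172, 0.0335 and 0.0458 with vehicle and 0.0710, 0.123 and 0.186 with p-nitroanisole. The groups were apart by 1.98 (SE 0.48), or 3.95-fold. Its probe was well above background on 2 of 3 vehicle arrays, so it passed the filter only through the treated group. The second Hemgn probe gave 2.10.

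**Figure D1:**
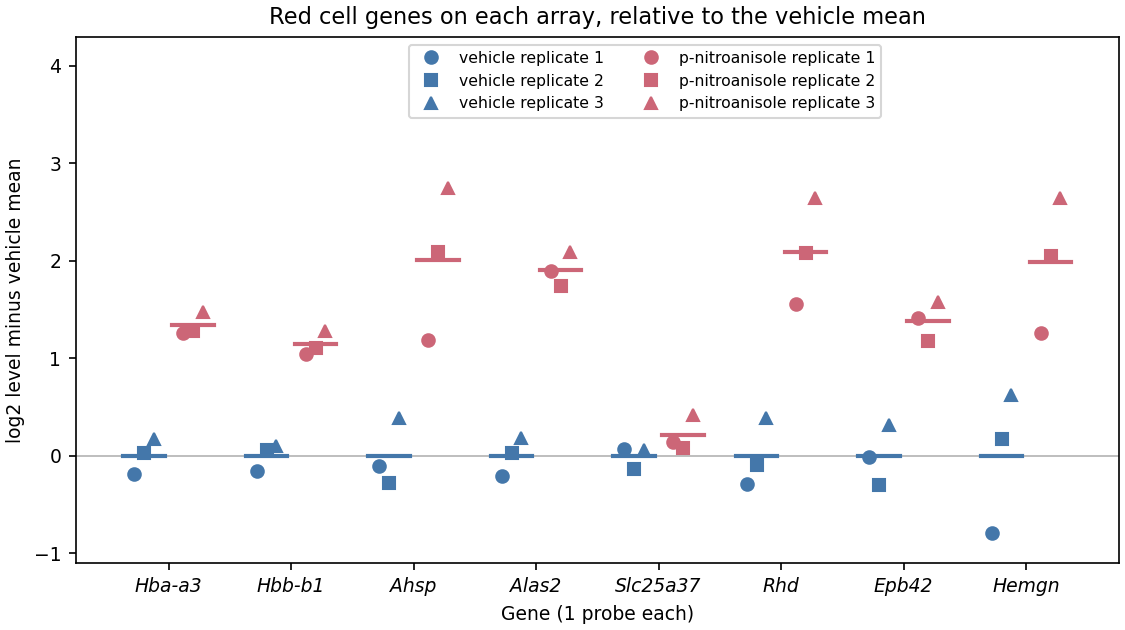
Log2 level of the 8 tested members on each of the 6 arrays, each gene relative to its vehicle mean, with 1 probe per gene. Blue points are vehicle, red points p-nitroanisole, symbols give the replicate number and bars the group means. Ahsp, Rhd and Hemgn spread over 1.57, 1.09 and 1.39 among treated arrays, the 2 globins over 0.22 and 0.24.

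Of the 9 members, 8 were tested and 7 were well above background on all 6 arrays. In the limma fit over all rows with Benjamini-Hochberg adjustment, Alas2, Hba-a3 and Hbb-b1 were among the rows under 0.05, which held 0.0745% of all rows (24 of 32197). The 8 tested members were higher in every treated animal than in any vehicle animal, where 11.9% of all rows were, and 10.3% of rows lay apart in the lower direction. Since this contrast chose the members, neither count is a test of them, and nothing is read from either. With any single array left out, 0 members passed. The median difference was 1.65 over the tested members, 1.39 over those above background on every array, and 0.01 over all rows.

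With vehicle means set to 0, the mean of the 2 globins was -0.17, 0.04 and 0.13 on vehicle arrays 1 to 3 and 1.15, 1.19 and 1.38 on treated arrays 1 to 3. The mean of the 6 tested reticulocyte-type genes was -0.22, -0.10 and 0.33, and then 1.24, 1.54 and 2.02. Both classes were higher on each treated array than on any vehicle array. Subtracting the globin mean from the reticulocyte-type mean left -0.05, -0.15 and 0.20 on the vehicle arrays and 0.09, 0.34 and 0.64 on the treated arrays. The treated mean of this difference was 0.36 ± 0.28 (SD, n = 3), and its lowest treated value lay inside the vehicle range. The sign of the class difference was not stable. With normexp background correction, which adds an offset and so shrinks differences of dim probes, it was -0.042, and with every probe as its own row -0.39. Without the single low spot of the dimmer Hba-a3 probe, the latter was 0.28. On slide 1 alone, without treated replicate 3, it was 0.22.

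Single genes differed in how far they departed from the globins, a comparison added after the values were seen. Alas2 minus the globin mean was -0.04, -0.02 and 0.06 with vehicle and 0.74, 0.55 and 0.71 with treatment. The groups did not overlap, with a treated mean of 0.67 ± 0.10 (SD, n = 3), and with normexp the value was 0.60. Rhd minus globins was 0.41, 0.88 and 1.26 on the treated arrays, all above its vehicle values of -0.12, -0.14 and 0.26, and the mean of 0.85 became 0.35 with normexp. Ahsp minus globins was 0.03, 0.90 and 1.37, so treated replicate 1 lay within the vehicle range of -0.33 to 0.26. Epb42 (mean 0.15) and Hemgn (mean 0.74) overlapped with vehicle too, and Slc25a37 lay below the globins on every treated array (mean -1.03). With every probe as its own row, which lets in the dimmer Hba-a3 probe, the value for Alas2 turned to -0.10, and those for Rhd and Ahsp were 0.08 and 0.09. Without the low spot of that probe they were 0.56, 0.75 and 0.76.

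**Figure D2:**
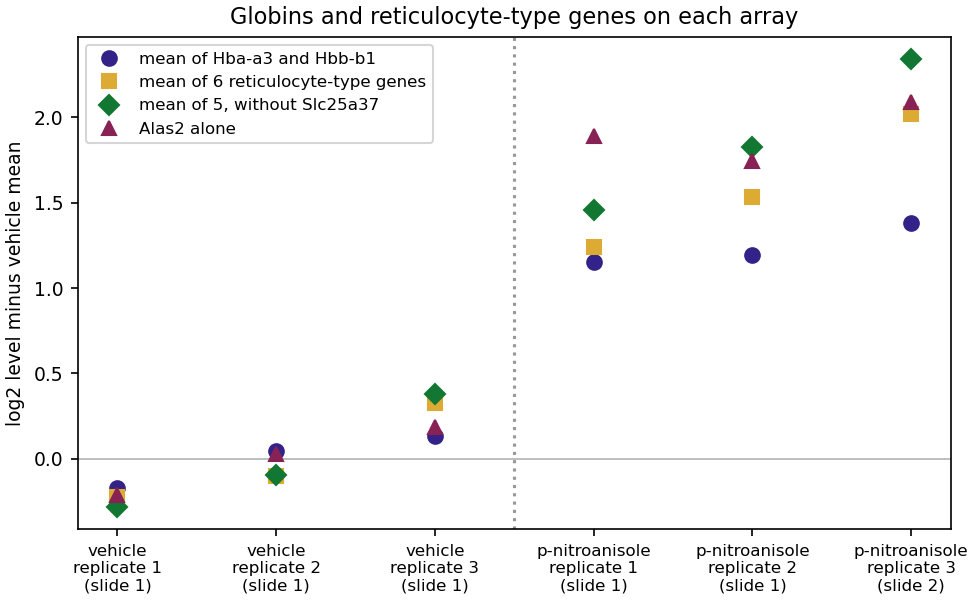
Mean log2 level of the globins, of the 6 reticulocyte-type genes, of those without Slc25a37, and of Alas2 alone, on each array relative to the vehicle mean. On treated replicates 1, 2 and 3 the globins lay at 1.15, 1.19 and 1.38 and Alas2 at 1.89, 1.74 and 2.09.

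The size of a globin difference depended on the probe. The member globins and their relatives had 17 probes, and 12 of them, from 7 genes, were well above background on all 6 arrays. Of these, 7 had a mean over 100 times the percentile, with differences of 0.87 to 1.59 and a median of 1.14. The 5 dimmer ones spanned 0.53 to 1.59, with a median of 1.42. Within a gene the spread could be as wide: the bright Hba-a1 probe gave 0.96 (1.95-fold) and the dimmer one 1.59 (3.01-fold), and the Hbb probes gave 0.87 (1.83-fold) and 1.56 (2.95-fold). Whether bright probes understate the difference was not tested; no globin spot was saturated, and the brightest had a median raw signal under the scanner's limit of 779009. Related globin genes can share transcript sequence, and whether a probe also reads the relatives of its gene was not tested, since probe sequences were not used here.

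Of the globin probes above background on all 6 arrays, 3 had means between 1 and 100 times the percentile (Hba-a1, Hbb and Hbe2), and the dimmer Hba-a3 probe was left out by that filter through its low spot. Against these 3, Alas2 was higher by 0.47, 0.32 and 0.36 on treated arrays 1 to 3. The vehicle arrays lay between -0.02 and 0.02. This was a smaller excess than the 0.67 found against the member globins, whose probes are brighter. Rhd and Ahsp overlapped with vehicle in that comparison.

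**Figure D3:**
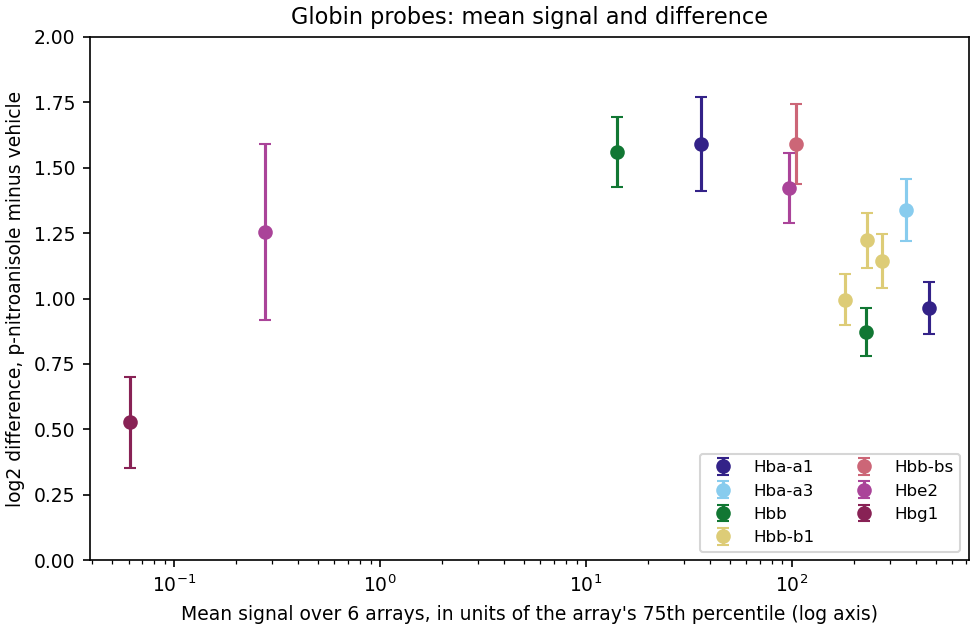
Log2 difference, p-nitroanisole minus vehicle, of the 12 globin probes above background on all 6 arrays, against their mean scaled signal on a log axis. Error bars are the standard error of the limma fit (3 arrays per group). The pairs of Hba-a1 probes (0.96 and 1.59) and Hbb probes (0.87 and 1.56) show that probes of 1 gene differ.

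All 8 tested members had their highest treated value on treated replicate 3, as did 37.7% of all rows. That array was the only one on slide 2. The slide and the animal cannot be told apart there. Treated replicate 1 was lowest for Hba-a3, Hbb-b1, Ahsp, Rhd and Hemgn, and treated replicate 2 for Alas2, Slc25a37 and Epb42. On slide 1 alone the differences were 1.27 for Hba-a3, 1.07 for Hbb-b1, 1.64 for Ahsp, 1.82 for Alas2, 1.82 for Rhd, 1.29 for Epb42, 1.65 for Hemgn and 0.11 for Slc25a37. Among vehicle arrays, 7 of the 8 were highest on replicate 3, as were 35% of all rows.

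Across the 6 arrays, Hba-a3 and Hbb-b1 correlated at r = 0.999 and Alas2 with Hba-a3 at 0.998. Ahsp and Rhd correlated at 0.986, Hemgn and Rhd at 0.971, and Slc25a37 with the other members at 0.683 to 0.814. These values describe arrays that fall into separate groups, so most of each correlation is the group difference itself. Among 663 other named genes with an SD of at least 0.5 over the arrays, those most like the mean of the members over the same 6 arrays included Cd52 (r = 0.996), Olr1198 (0.990), Hbe2 (0.989), Hba-a1 (0.983) and Hbb-bs (0.981). The last 3 of these are globins. Cd52, a surface glycoprotein of white blood cells, read 0.172, 0.225 and 0.315 with vehicle and 0.884, 1.00 and 1.39 with treatment, a 4.66-fold difference.

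A group of 6 lists covered the rest of the red cell pathway, 88 tested genes apart from the members. Of these, 55 were higher and 33 lower, where 52.4% of all rows were higher, and their median was 0.08. Alox15, the lipoxygenase with which reticulocytes break down their mitochondria, was the only one to pass limma's Benjamini-Hochberg test, and none of the lower genes did (over all rows, 0.0497% passed as higher and 0.0248% as lower). At an unadjusted p under 0.05, 18 were higher and 6 lower, where 13.4% of all rows passed in either direction. Alox15 read 0.0990, 0.116 and 0.114 with vehicle and 0.635, 0.669 and 0.862 with treatment, and rose by 2.71 (SE 0.14), or 6.56-fold (limma adjusted p = 0.0211). That call was lost in each fit without a single array except the one without treated replicate 3.

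The other globins were all higher, 6 of 6 tested, with a median of 0.97 and none past the test. Hbb-bs had a difference of 1.59 and Hbe2 of 1.42 (limma adjusted p = 0.0516 for each). Hbz, an embryonic alpha-type chain, differed by 0.98 with overlapping groups, and by 0.40 with normexp. Its probe was well above background on 1 of 3 vehicle and 3 of 3 treated arrays. Hbz thus passed the filter only through the treated group, and nothing is read from its place among the higher globins.

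Heme synthesis and iron supply showed no shared direction: 11 of 21 tested genes were higher, the median was 0.01 and none passed. The list mixes bright genes, such as Alad (115 to 132 with vehicle) and Aco1 (73.5 to 78.9), with dim ones such as Steap3 (0.0442 to 0.0506). Which cells of the cortex or its blood this RNA came from was not tested, so the median is not a value for red cells. Fech, the enzyme that puts iron into heme, differed by 0.35. Alas1, the housekeeping counterpart of Alas2, read 36.2, 34.0 and 38.4 with vehicle and 23.2, 29.7 and 22.5 with treatment, a difference of -0.53 that did not pass (limma adjusted p = 0.195). Tfrc, the transferrin receptor that brings iron into precursors, had a difference of -0.84, with its groups apart, and did not pass either (limma adjusted p = 0.254). Alas2 and Alas1 therefore lay on opposite sides of the vehicle range.

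Red cell membrane and skeleton genes were 7 higher and 9 lower of 16, with a median of -0.06 and none past the test. They too mixed bright genes, such as Aqp1 (129 to 133 with vehicle), with dim ones, and their cells of origin were not tested. Add2, a skeleton protein of red cells and brain, read 0.0594, 0.0741 and 0.0941 against 0.274, 0.208 and 0.264, a difference of 1.73 (limma adjusted p = 0.0731). Kel, the Kell blood group protein, had 1.92 (limma adjusted p = 0.304). Stom had -0.40 with overlapping groups.

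Nuclear factors of the lineage were 6 higher and 6 lower of 12, with a median of -0.01 and none past the test. Klf1, a transcription factor of red cell precursors, read 0.0444, 0.0461 and 0.0484 with vehicle and 0.0647, 0.0761 and 0.0913 with treatment, a difference of 0.73 (limma adjusted p = 0.146). Nfe2, a factor of globin gene control, had 0.81 (limma adjusted p = 0.282) and Bcl11a 0.39. Gata1 was well above background on 2 arrays and Gfi1b on 0, so neither was tested.

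Maturation genes and enzymes were 18 higher and 5 lower of 23, with a median of 0.18 and Alox15 the only one called. Trim58, a ubiquitin ligase of late precursors, had a difference of 0.64 (limma adjusted p = 0.222) and Gclc 0.49 with overlapping groups. Genes of the erythropoietin signal were 7 higher and 3 lower of 10, with a median of 0.14 and none past the test, and Stat5a (-0.43), Pim1 (0.43) and Cish (0.37) differed most. Epo itself was well above background on 1 array and was not tested.

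**Figure D4:**
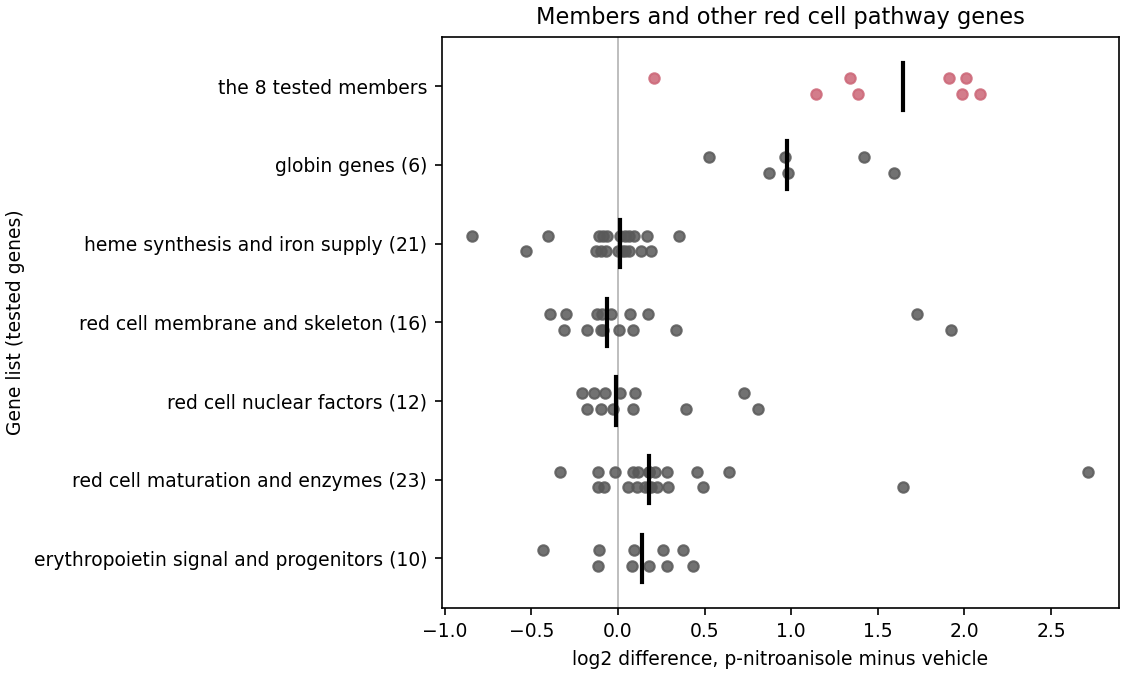
Log2 differences, p-nitroanisole minus vehicle, of the 8 tested members and of the tested genes of 6 red cell pathway lists, 1 point per gene, with a black bar at each median. The members' median is 1.65 and that of the other globins 0.97, while the heme synthesis, membrane and nuclear factor lists have medians of 0.01, -0.06 and -0.01. Which cells the RNA of the list genes came from was not tested, so these medians are not values for red cells.

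Markers of other blood cells were measured on the same arrays, and their part in the members' values was not tested. Of 9 tested neutrophil markers 6 were higher, with a summed scaled level of 1.19 to 1.41 with vehicle and 2.04 to 2.20 with treatment, and their median difference was 0.03. The higher sum lay in S100a8 and S100a9 (together 0.337 to 0.489 against 1.12 to 1.27), while the other 7 markers summed to 0.855 to 0.925 against 0.775 to 0.993. S100a8, a calcium-binding protein of neutrophils and monocytes, passed with a difference of 1.78 (limma adjusted p = 0.0453). S100a9 had 1.54. The granule gene Camp had 0.47 with its groups apart and did not pass (limma adjusted p = 0.246). Mmp9 (-0.34), Lcn2 (-0.16), Fcnb (-0.06) and Prtn3 (0.002) had overlapping groups. The granule genes Ngp, Elane, Ltf and Mmp8 and the receptor Cxcr2 were well above background on 0 arrays. Platelet markers were higher for 6 of 7 genes, summed 5.48 to 6.04 against 6.39 to 6.78, led by Pf4 at 0.56, with none past the test. T, NK and B cell markers were lower for all 12, summed 2.56 to 2.74 against 2.09 to 2.65, with none past the test. Macrophage markers were higher for 5 of 11, summed 25.8 to 31.5 against 27.2 to 31.6, and without Hmox1 25.5 to 31.2 against 23.2 to 28.8. Hmox1, the heme-degrading enzyme, rose by 3.51 (limma adjusted p = 0.0200). The other macrophage markers went both ways, with none past the test. Mrc1 (0.52) and Slc40a1 (0.37) were higher with their groups apart, and Vcam1 (0.12) and Csf1r (0.01) higher with overlapping groups. Lower were C1qa, C1qb and C1qc (-0.40, -0.41 and -0.39), Siglec1 (-0.49), Cd68 (-0.43) and Adgre1 (-0.05). The scavenger receptors Cd163 and Marco were well above background on 0 arrays.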

How the data were processed

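Renal cortex RNA of 3 vehicle and 3 treated rats was measured on 1-colour Agilent arrays. Spot intensity was extracted and background-subtracted with Feature Extraction of Agilent, which per the file headers was version 10.7.1.1 (10.7 in the submitters' processing notes). The authors' deposited series matrix holds a signal equal to the processed intensity divided by 1 constant per array, as a comparison of both files showed, with column medians of 0.105 to 0.111.

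From the deposited processed intensity, floored at 1, the log2 value was taken and the 75th percentile of the non-control probes of that array subtracted. Control spots were dropped, as were outlier-flagged ones, of which an array had 0 to 4. A probe was tested where all 3 arrays of a group, or of both, had it well above background, the one with the highest mean level standing for each named gene and unnamed probes as rows of their own (32197 rows). limma 3.58.1 (lmFit, eBayes, R 4.3.3) compared the groups, and its two-sided p-values were adjusted by Benjamini-Hochberg over the 32197 rows (threshold 0.05). The procedure was tested on simulated data. The design text calls the samples biological replicates. Symbols came by accession from RefSeq (GRCr8). The array design is of another build, so coordinates are given only for RefSeq windows.

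The members, gene lists and alternatives were chosen with earlier results of these data known. Besides the members, the text names in each list the called genes and the 3 others with the largest differences, and the 6 genes most like the members' mean. Some genes that these rules select are left out of the text. Any other gene was chosen after its values were seen. The lists for endothelium, proximal tubule, podocytes and thick limb had medians of -0.07, 0.05, -0.12 and -0.10, with 0 genes called. Alternatives were quantile or median scaling, the series matrix, normexp (offset 50, on the median spot signal in place of the mean), other filters, every probe as a row, a trended robust variance, slide or replicate number as a block, slide 1 alone, each array left out in turn and a threshold of 0.01.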

Additional observations from a re-analysis of the deposited data

How the results depend on the processing

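The 24 rows and 3 members called at the main setting depended on the processing. Normexp called 85 rows with 6 other pathway genes, the trended robust variance 316 rows, 5 members and 6 pathway genes (with both, Alox15, Add2, Hba-a1, Hbb, Hbb-bs and Hbe2), and the filter on all 6 arrays 3 pathway genes. With every probe as its own row 2 pathway genes were called. Quantile scaling left 1 member (Alas2). Without a filter 2 rows, 0 members and 0 pathway genes were called (8499 rows at an unadjusted p under 0.05 in limma). Slide as a block, or slide 1 alone, left 9 rows and 0 members. At a threshold of 0.01 limma called 0 rows, 0 members and 0 pathway genes. Leaving out 1 array left 0 to 9 rows (3262 to 4361 at an unadjusted p under 0.05 in limma), 0 members and 0 to 1 pathway genes.

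The median over the members, 1.65, was 1.26 with normexp, 1.39 with the filter on all 6 arrays and 1.97 with every probe as its own row. The reticulocyte-type minus globin difference, 0.36, turned to -0.042 with normexp and to -0.39 with every probe as its own row. It was 0.70 with the median over the reticulocyte-type genes, 0.64 without Slc25a37 and 0.61 without Slc25a37 and Hemgn. Alas2 minus globins turned to -0.10 with every probe as its own row, which lets in the dimmer Hba-a3 probe with its low spot. Each tested member stayed higher with treatment in all 17 refits (16 for Hemgn, which the filter on all 6 arrays removed), but these are not separate checks. The trended robust variance, the replicate block and the other filters left the difference of each retained member as it was. Slide as a block, slide 1 alone and the fit without treated replicate 3 gave the same differences as each other. Since this contrast also chose the members, nothing is read from the count.

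The values gave no sign that replicate numbers pair the samples: deviations of same-numbered arrays correlated at -0.01, 0.04 and -0.01. Of 3 vehicle arrays, 1 correlated best with its own number. With 3 arrays per group this cannot show that the samples were unpaired. With the replicate block limma called 1 row, 0 members and 0 other pathway genes (3820 rows at an unadjusted p under 0.05). Among the members, signal over background limits Rhag, Hemgn and Epb42, whose dim probes had differences that shrank with normexp. The Rhd difference shrank with normexp as well, from 2.09 to 1.61. Signal over background also limits dim genes of the lists, such as Kel (1.92, and 0.78 with normexp).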
